A study of Saccharomyces cerevisiae with 6 samples.

Results

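The assembly factors of the large (60S) ribosomal subunit are the proteins that fold, trim and export the precursor of that subunit without staying in the finished ribosome. A list of 55 such genes, running from the earliest nucleolar particle to the last steps in the cytoplasm, was matched by symbol or alias to the platform's gene symbols. All 55 were found among the 5449 named genes, MDN1 under the reference symbol REA1. Each had 1 probe set, none carried the suffix that marks shared probes, and all 55 passed the filter on low values. Total RNA came from Saccharomyces cerevisiae BY4741, a haploid laboratory strain, transformed with a galactose-driven copy of p110α-CAAX, the membrane-directed catalytic subunit of mammalian phosphoinositide 3-kinase. The PI3K group carried the active form and the KD group the kinase-dead form with the substitution K802R, with 3 biological replicates and 1 array each. All cultures grew in synthetic complete raffinose medium and received 2% galactose for 4 h, so the galactose treatment was the same in both groups. The labels do not say whether the replicates came from different transformants, and the transgene was not analysed here.

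Assembly of the 60S subunit begins in the nucleolus on a long precursor RNA, where helicases, scaffold proteins and RNA-modifying enzymes organise the rRNA domains. Later nucleolar factors close the particle around the internal spacer ITS2. In the nucleoplasm a giant ATPase strips factors away and the spacer is trimmed. Adaptors then carry the particle through the nuclear pore, and the last placeholders leave in the cytoplasm. The genes of this program are known in budding yeast as a regulon whose transcripts rise and fall together with growth signals through TORC1, Sch9 and Sfp1.

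The deposited values are log2 summaries, with array medians between 9.49 and 9.54. The arrays varied beyond their groups: after group means were removed, the first principal component held 70.4% of the variance and set PI3K 1, PI3K 3 and KD 3 (side A) apart from PI3K 2, KD 1 and KD 2 (side B). The labels name no batch, so differences within each side are given beside the pooled ones. Markers of the a mating type had mean values of 10.50 to 12.57, and those of the alpha type 4.80 to 8.39. Of these the alpha-type receptor gene STE3 had the largest difference, with a log2 fold change of 0.85 and an adjusted p of 0.145.

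Transcripts of 60S assembly factors were mostly lower in PI3K than in KD, by small amounts. Of the 55 genes 51 had a difference below 0, and the median log2 fold change was -0.28, beside -0.0018 over all 5350 genes tested. The differences ran from -0.64 for IPI3 to 0.24 for TIF6. None of the 55 passed an adjusted p of 0.05 in limma, where 13 genes, or 0.243% of those tested, passed. At an unadjusted p under 0.05, 20 members (36.4%) were lower and 0 were higher, against 6.58% lower and 7.94% higher among all genes. The 3 PI3K values lay below the 3 KD values for 24 members (43.6%), against 10.5% of all genes, and above them for 2, against 10.2%. Below 0 lay 50.3% of all genes. In bulk RNA, fewer cells with a transcript and less of it per cell cannot be told apart.

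**Figure D1:**
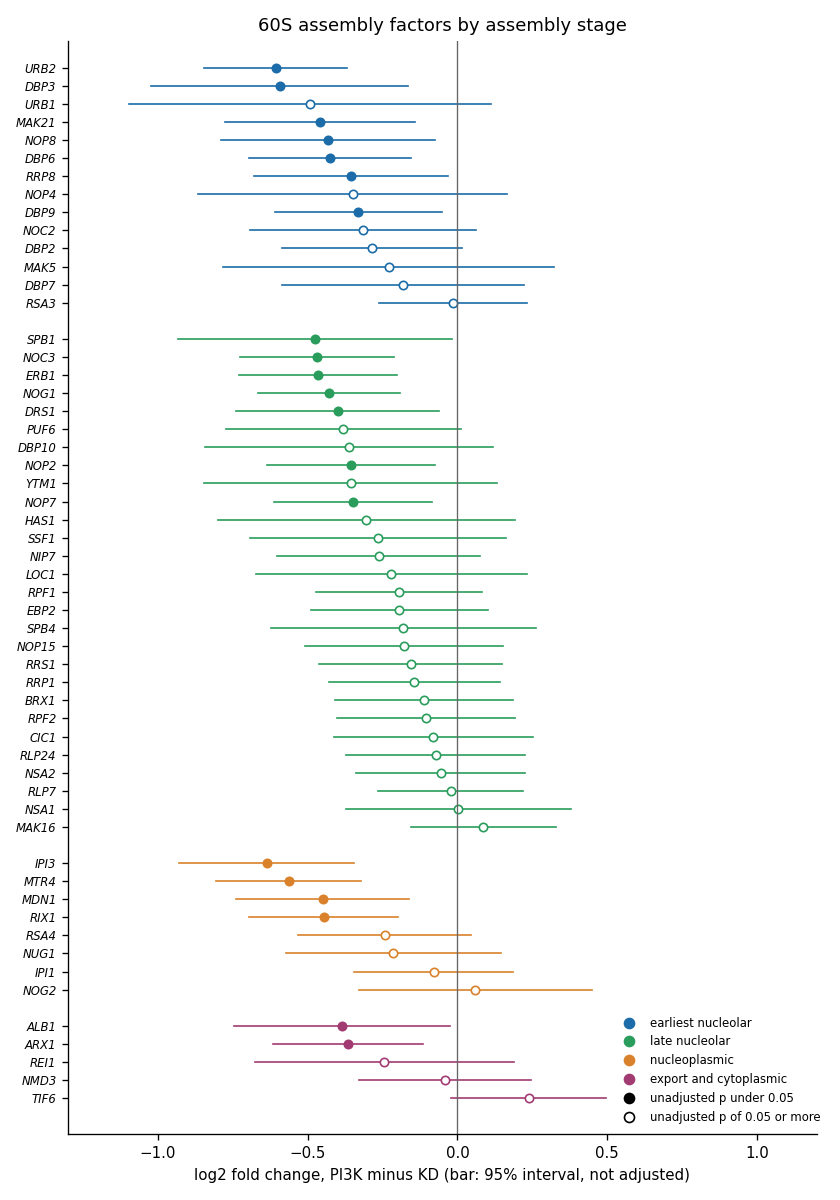
Log2 fold change (PI3K minus KD) of each of the 55 members, in 4 assembly stages from top to bottom, with the 95% interval of the limma fit as a bar and 3 arrays in each group. Filled points have an unadjusted p under 0.05; these 20 members all lie below 0, and the points above 0 belong to MAK16, NSA1, NOG2 and TIF6.

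The earliest nucleolar stage held 14 members, all of them below 0, with a median of -0.35. The Npa1 complex, which chaperones the first folding of the large-subunit rRNA, had all 5 of its members in the list. URB2, a member of that complex, had log2 values of 9.49, 9.64 and 9.54 on PI3K arrays 1 to 3, against 10.16, 10.17 and 10.16 on KD arrays 1 to 3. The groups were well apart, and the KD values were almost equal. The log2 fold change was -0.61 (SE 0.10, adjusted p = 0.112). This was the smallest p among the 55 members.

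DBP6, the DEAD-box helicase of the same complex, stood at 10.42, 10.38 and 10.50 in PI3K and at 10.91, 10.96 and 10.71 in KD. Here too every PI3K value was the lower one, with a log2 fold change of -0.43 with an SE of 0.11 (adjusted p = 0.196). NOP8, which binds RNA in the complex, had a log2 fold change of -0.43, and the scaffold gene URB1 one of -0.49 with an SE of 0.26. The spread of URB1 lay in KD 3, which at 9.14 was within the PI3K range of 9.11 to 9.42, while KD 1 and KD 2 were at 10.03 and 10.05. RSA3, the small member of the complex, had almost equal means. Its values were 9.55, 9.69 and 9.59 in PI3K and 9.59, 9.70 and 9.59 in KD, overlapping throughout, and its log2 fold change of -0.01 had a 95% interval of -0.26 to 0.23.

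MAK21, also called Noc1, pairs with Noc2 on early particles. It had values of 10.42, 10.74 and 10.56 in PI3K and of 11.07, 11.15 and 10.88 in KD, with the groups apart and a log2 fold change of -0.46 with an SE of 0.13 (adjusted p = 0.214). Its partner NOC2 had a log2 fold change of -0.32. DBP3, a helicase that aids early cleavage of the precursor, gave 10.76, 10.61 and 10.86 in PI3K and 11.09, 11.22 and 11.71 in KD. The groups were apart, KD 3 was the highest array, and the log2 fold change was -0.59 (SE 0.18, adjusted p = 0.224). Without KD 3 that of DBP3 was -0.41. Among the rest, the helicase genes DBP9 (-0.33), DBP2 (-0.28), MAK5 (-0.23) and DBP7 (-0.18) lay below 0, as did the RNA-binding factor NOP4 (-0.35) and RRP8 (-0.35), the methyltransferase of an adenine base in the large rRNA.

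The late nucleolar stage was the largest, with 28 members, 26 of them below 0, and a median of -0.21. Its members ran from differences like those of the early stage to almost none, with many in between. NOC3, the later partner of Noc2, had values of 9.60, 9.50 and 9.65 in PI3K, against 10.10, 10.10 and 9.96 in KD, with a log2 fold change of -0.47 with an SE of 0.11 (adjusted p = 0.162). NOG1, a GTPase whose tail reaches into the peptide exit tunnel of the particle, had 11.31, 11.42 and 11.40 in PI3K and 11.78, 11.84 and 11.79 in KD. For both genes the groups were apart by more than the range within either. The log2 fold change of NOG1 was -0.43 (SE 0.10, adjusted p = 0.162).

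The Nop7-Erb1-Ytm1 complex, known in mammals as PeBoW, joins distant rRNA domains. ERB1 stood at 10.77, 10.74 and 10.88 in PI3K and at 11.26, 11.37 and 11.16 in KD, a log2 fold change of -0.46 with an SE of 0.11 (adjusted p = 0.167). NOP7 stood at 10.31, 10.53 and 10.36 in PI3K and at 10.68, 10.79 and 10.79 in KD, a log2 fold change of -0.35 with an SE of 0.11 (adjusted p = 0.238). Neither gene had overlapping groups. YTM1, which Mdn1 pulls off the particle together with Erb1, had a log2 fold change of -0.36 (SE 0.21), with overlapping groups. The enzymes and helicases of the stage were similar: SPB1, a ribose methyltransferase, was at -0.48, NOP2, a cytosine methyltransferase, at -0.36, DRS1 at -0.40, DBP10 at -0.36, HAS1 at -0.30 and SPB4 at -0.18. DRS1, DBP10, HAS1 and SPB4 encode DEAD-box helicases. PUF6 (-0.38) and LOC1 (-0.22), RNA-binding proteins that also serve the localisation of ASH1 mRNA, lay below 0 as well.

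Other modules of this stage had small differences. The factors that sit on ITS2, namely RLP7, NOP15 and CIC1, had a median of -0.08, and the Nsa1 module of RRP1, NSA1, MAK16 and RPF1 one of -0.07. Their genes are also short, with median lengths of 969 and 904 bp, against 1818 bp for the Nop7-Erb1-Ytm1 complex. RLP7, a relative of ribosomal protein L7, gave 11.71, 11.79 and 11.69 in PI3K and 11.82, 11.70 and 11.74 in KD. Those ranges overlapped, and the log2 fold change of -0.02 had an interval of -0.26 to 0.22. MAK16, a zinc-binding factor, had 9.16, 9.10 and 9.13 in PI3K and 8.96, 9.07 and 9.10 in KD. Its 3 PI3K values were the higher ones by a narrow margin, with a log2 fold change of 0.09 with an SE of 0.10 (adjusted p = 0.781). NSA1, which the ATPase Rix7 releases, had a log2 fold change of 0.0035. For NSA1 and MAK16 the sign changed in at least 1 alternative setting.

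RLP24 holds the place of ribosomal protein L24 until the cytoplasm. It stood at 11.76, 11.95 and 11.71 in PI3K and at 11.98, 11.93 and 11.72 in KD, overlapping, with a log2 fold change of -0.07 and an interval of -0.37 to 0.23. SSF1, a Brix-domain factor, had 9.66, 10.06 and 9.77 in PI3K and 10.18, 10.32 and 9.78 in KD. PI3K 2 lay above KD 3, and the log2 fold change was -0.27 (SE 0.18, adjusted p = 0.586). That value moved with single arrays: it was -0.42 without KD 3, -0.15 without KD 2 and -0.18 without PI3K 1. Its close paralog SSF2, which is no member, had 8.85, 9.36 and 8.95 in PI3K and 9.44, 9.50 and 9.28 in KD, so the 6 arrays had the same order in the pair, although signal may be shared between such relatives. RPF2 and RRS1, which load the 5S particle, were at -0.10 and -0.16. BRX1 (-0.11) and its partner EBP2 (-0.19), NIP7 (-0.26), RPF1 (-0.19), RRP1 (-0.14), NOP15 (-0.18), CIC1 (-0.08) and NSA2 (-0.06), a factor that follows Nog1, complete the stage.

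**Figure D2:**
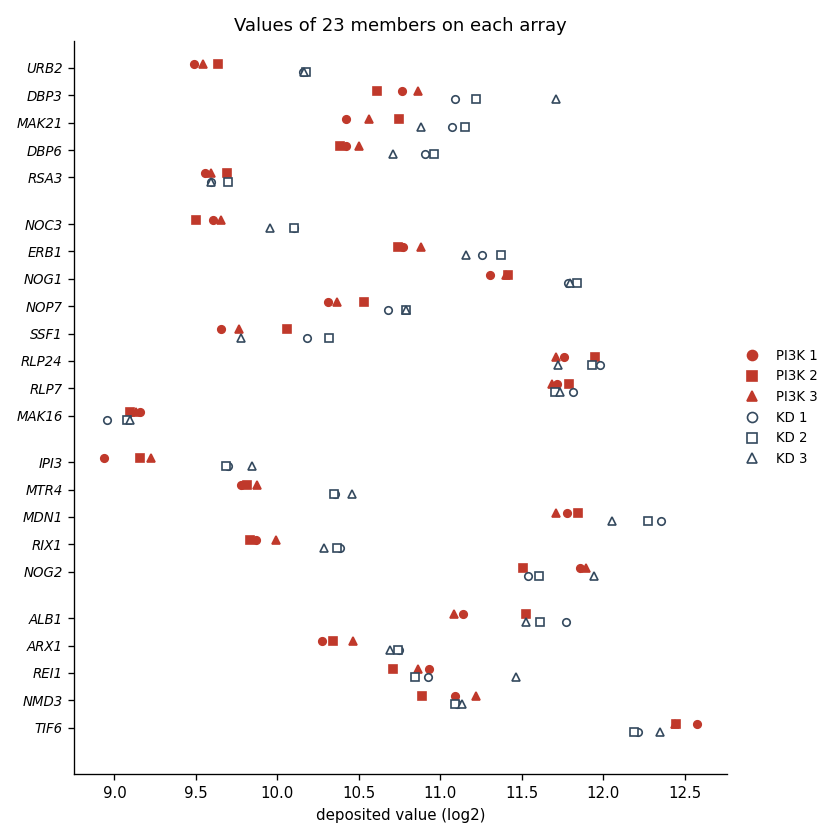
Deposited log2 values of 23 members on each of the 6 arrays (x axis), with filled red symbols for the 3 PI3K arrays and open symbols for the 3 KD arrays; the genes run by stage from top to bottom. Values of URB2, NOG1, MTR4 and IPI3 form separate groups, while those of RSA3, RLP7, RLP24 and NMD3 overlap.

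The nucleoplasmic stage had 8 members, 7 of them below 0, with a median of -0.34. It holds the Rix1 complex and the ATPase Mdn1, which together remodel the particle before export. IPI3, a member of the Rix1 complex, had values of 8.94, 9.16 and 9.22 in PI3K, against 9.70, 9.68 and 9.85 in KD. Its log2 fold change of -0.64 with an SE of 0.12 (adjusted p = 0.120) was the lowest of all 55. RIX1 stood at 9.87, 9.83 and 9.99 in PI3K and at 10.38, 10.36 and 10.29 in KD, with a log2 fold change of -0.45 with an SE of 0.11 (adjusted p = 0.162). The groups were apart for both genes. IPI1, the remaining member of the complex, had a log2 fold change of -0.08 with an interval of -0.34 to 0.19, and its groups overlapped.

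MDN1 encodes the giant ATPase, also called Rea1. Its values were 11.78, 11.84 and 11.71 in PI3K and 12.36, 12.27 and 12.05 in KD, with the groups apart and a log2 fold change of -0.45 with an SE of 0.12 (adjusted p = 0.198). It is the longest member, and after each array was corrected for gene length its value was -0.23 (limma adjusted p = 0.443). RSA4, the factor that Mdn1 grips, had a log2 fold change of -0.24, and the GTPase gene NUG1 one of -0.21. MTR4, the helicase that feeds spacer RNA to the nuclear exosome, stood at 9.78, 9.81 and 9.87 in PI3K and at 10.35, 10.34 and 10.46 in KD. Those 6 values formed narrow groups with a log2 fold change of -0.56 with an SE of 0.10 (adjusted p = 0.113). NOG2, the GTPase that holds the site of Nmd3, had 11.86, 11.51 and 11.90 in PI3K and 11.54, 11.60 and 11.94 in KD. Its high arrays were PI3K 1, PI3K 3 and KD 3, the arrays of side A, so its values followed the sides and not the groups. The log2 fold change was 0.06, and its sign changed with 4 of the 16 alternative settings, some of which, such as the changes of filter, could not move it.

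Of the 5 members of the export and cytoplasmic stage 4 were below 0, and the median was -0.24. The pair that covers the tunnel exit during export was lower. ARX1 had values of 10.27, 10.34 and 10.47 in PI3K and of 10.74, 10.74 and 10.69 in KD, a log2 fold change of -0.36 with an SE of 0.11 (adjusted p = 0.213). Its partner ALB1 had 11.14, 11.53 and 11.09 in PI3K and 11.77, 11.61 and 11.53 in KD, a log2 fold change of -0.39 with an SE of 0.15 (adjusted p = 0.312). The groups of ARX1 were apart, and those of ALB1 touched, with PI3K 2 just under KD 3. REI1, which removes Arx1 and Alb1 in the cytoplasm, had 10.93, 10.71 and 10.86 in PI3K and 10.92, 10.85 and 11.46 in KD. Its log2 fold change of -0.24 with an SE of 0.18 (adjusted p = 0.619) came with a high value in KD 3, and without that array it was -0.05.

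NMD3 encodes the adaptor that recruits the exportin Crm1. Its values were 11.09, 10.89 and 11.22 in PI3K and 11.10, 11.09 and 11.13 in KD, which overlapped, and the log2 fold change of -0.04 had an interval of -0.33 to 0.25. TIF6, known in animals as eIF6, joins in the nucleolus and keeps the subunits apart until it leaves in the cytoplasm. It had 12.58, 12.45 and 12.44 in PI3K and 12.21, 12.19 and 12.35 in KD. All 3 PI3K values were the higher ones, with a log2 fold change of 0.24 with an SE of 0.11 (adjusted p = 0.387), and this was the one member whose difference was above 0 in the fit of all arrays and in all 16 alternatives, the lowest being 0.12 with the length trend removed. Some of these alternatives, such as the changes of filter, could not move a member's log2 fold change.

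By kind of protein, all 11 helicase genes were below 0 (median -0.33, lowest DBP3 and highest SPB4). All 3 methyltransferase genes were lower at an unadjusted limma p under 0.05, as were 6.58% of all genes, with adjusted p from 0.249 to 0.328. The 30 scaffold genes had a median of -0.22, with 28 below 0. Helicase genes were the longer ones, with a median length of 2229 bp, against 1323 bp for the scaffold genes. The GTPase genes differed among themselves, from -0.43 for NOG1 to 0.06 for NOG2. No test compares these kinds or the stages, and the counts describe these arrays.

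**Figure D3:**
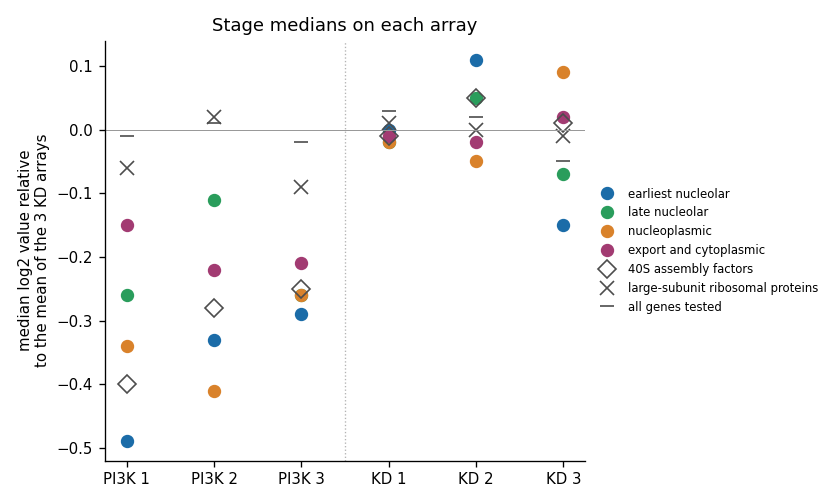
Median log2 value of each stage on each array, relative to each gene's mean over the 3 KD arrays (y axis), with PI3K arrays left of the dotted line. On the PI3K arrays the stage medians lie between -0.49 and -0.11, and on the KD arrays between -0.15 and 0.11; large-subunit ribosomal proteins and all genes lie near 0.

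Each PI3K array had the members low. Relative to the KD means, their median was -0.40, -0.28 and -0.26 on PI3K arrays 1 to 3, while it was -0.01, 0.04 and -0.03 on KD arrays 1 to 3. On this scale the KD values of each gene average 0 by construction, and the PI3K arrays share that baseline. Within side A the median difference of the members was -0.25, with 47 of 55 below 0. Within side B it was -0.29, with 45 of 55. Over all genes the median was 0.05 in side A, with 2301 of 5350 below 0. In side B that of all genes was -0.02, with 2805 below 0. In each side 1 of the groups is represented by a single array. The earliest nucleolar stage differed by -0.23 in side A and -0.39 in side B, and the nucleoplasmic stage by -0.30 and -0.46. The late nucleolar stage differed by -0.21 and -0.18, and the export and cytoplasmic stage by -0.32 and -0.18. KD 3 parted from the other KD arrays in both directions, among the members as among all genes. It was the lowest KD array for 28 of the 55 members and the highest for 18. Over all 5350 genes it was the lowest for 2787 and the highest for 1887. The count of members lower at an unadjusted p under 0.05 was 10 without PI3K 1 and 13 without KD 2, where 3.01% and 3.44% of all genes were lower at that p.

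The differences also moved with gene length. Across the 55 members the log2 fold change correlated with log gene length, taken from the R64 RefSeq gene table, at a Pearson r of -0.57 (Spearman -0.64), while over all 5350 genes r was -0.20 (Spearman -0.29). These genes share the same 6 arrays. The 18 shortest members, of 528 to 1179 bp, had a median of -0.11, the 19 in the middle one of -0.33, and the 18 longest, of 1971 to 14733 bp, one of -0.42. Within the shortest members the median was -0.16 in side A and 0.01 in side B. With a smooth length trend removed from each array, the median of all members was -0.26, 51 were below 0 and 24 were lower at an unadjusted p under 0.05, against 6.24% of all genes. The medians of the earliest nucleolar, late nucleolar, nucleoplasmic and export stages were then -0.28, -0.26, -0.24 and -0.28, so the order of the stages above was not kept. Of the late nucleolar modules, RLP7 was then at -0.19 and MAK16 at -0.09, while ERB1 was at -0.33 and NOP7 at -0.26. Whether gene length accounts for the contrast between those modules was not tested.

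**Figure D4:**
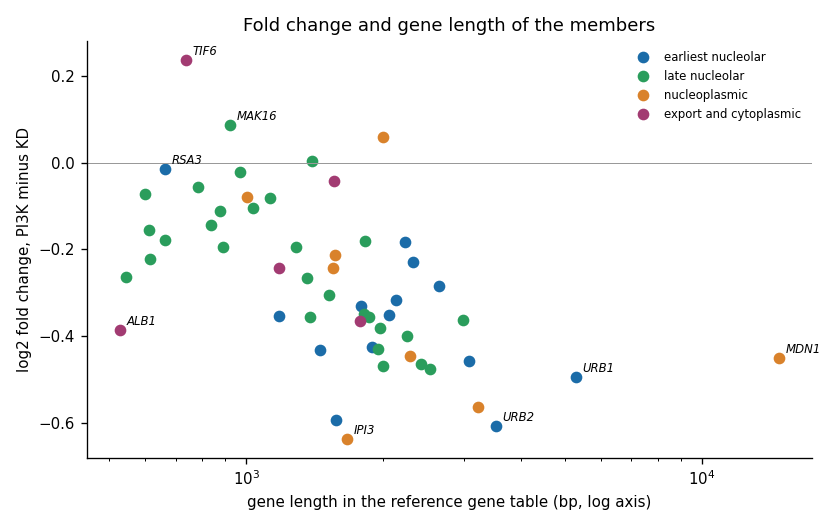
Log2 fold change (PI3K minus KD, y axis) of the 55 members against gene length in bp (logarithmic x axis), coloured by stage. Short genes such as TIF6, MAK16 and RSA3 lie near or above 0, ALB1 is a short gene at -0.39, and URB2, URB1 and MDN1 are long genes at -0.61, -0.49 and -0.45.

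Other assembly factors were mostly lower too, with 0 called. In a list of 42 other 60S factors 37 were below 0, with a median of -0.21, and 8 (19.0%) were lower at an unadjusted p under 0.05, with 0 called after adjustment. Over all genes tested, 50.3% were below 0, and 6.58% were lower and 7.94% higher at that p. RAT1, the nuclear exonuclease that trims spacers, had values of 9.97, 9.98 and 9.89 in PI3K and of 10.49, 10.31 and 10.55 in KD, a log2 fold change of -0.50 (adjusted p = 0.152). SDA1, a factor of late nuclear particles, was at -0.56, and the helicase gene PRP43, which also serves splicing, at -0.37. No gene of this list was higher at that p, and RAI1, the partner of Rat1, had the highest value at 0.28. Among 63 factors of the small subunit 58 were below 0, with a median of -0.33 and 26 (41.3%) lower at that p. Of those, UTP8 was at -0.55 and HCA4, also called DBP4, at -0.66. Of the large-subunit ribosomal proteins 71 of 77 genes were tested. Of these 56 were below 0, with a median of -0.04, and 0 genes were past p of 0.05 unadjusted in limma in either direction. The smallest p among them belonged to RPL4B (-0.32) and RPL22B (-0.24). The median value of these ribosomal protein genes was 13.74, near the top of the arrays' range. They were also short, with a median length of 815 bp. That of the members was 1563 bp, of the other 60S factors 1302 bp and of the small-subunit factors 1665 bp. Whether length or signal level accounts for the contrast was not tested. No test of the difference between these lists was made.

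**Figure D5:**
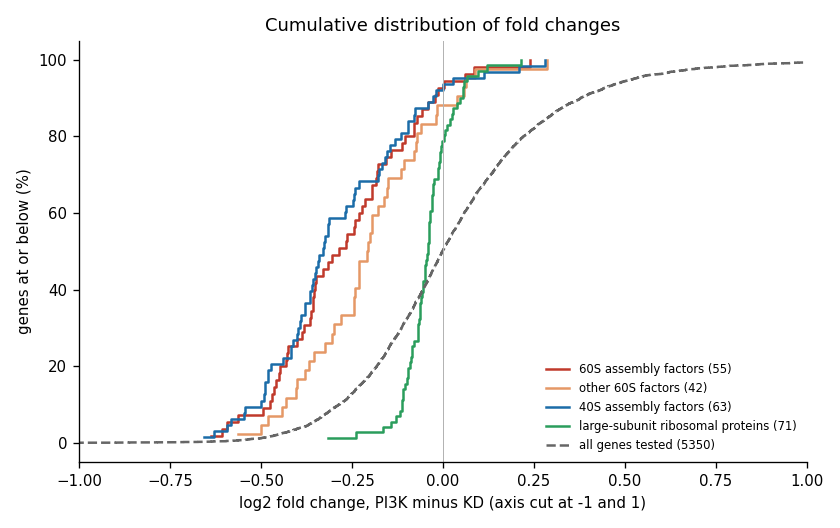
Cumulative share of genes (y axis, %) at or below each log2 fold change (PI3K minus KD, x axis) for the 55 members, 42 other 60S factors, 63 factors of the small subunit, 71 large-subunit ribosomal proteins and all 5350 genes tested. The curves of the 60S and 40S factors lie left of that of all genes, with medians of -0.28 and -0.33, and the ribosomal proteins have a median of -0.04.

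Regulators of these genes had mixed differences, none of which passed. DOT6, a repressor of ribosome assembly genes, was at -0.47 (adjusted p = 0.176), its paralog TOD6 at -0.18, and STB3, another repressor, at -0.01. SCH9, the kinase below TORC1, was at -0.43 (adjusted p = 0.269), and MRS6, which binds Sfp1, at -0.29. SFP1, the activator, was at 0.26 with an SE of 0.19, and LST8, a subunit of both TOR complexes, at 0.68 (SE 0.26, adjusted p = 0.308). Of the 16 genes of this list 11 were below 0 and the median was -0.12. At an unadjusted limma p under 0.05, 4 of them were lower, namely DOT6, SCH9, MRS6 and RAP1 (-0.40), and 1 was higher, LST8. Among all genes 6.58% were lower and 7.94% higher at that p.

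The members lie on 15 chromosomes in the R64 gene table, most often on chromosome XIV with 7. No 2 of them are neighbours, but 7 lie next to another assembly factor. RIX1 (-0.45) neighbours UTP9 (-0.25), and NOG2 (0.06) neighbours ESF2 (-0.41).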

How the data were processed

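The authors deposited 1 value per probe set for 6 arrays of 1-colour Affymetrix type, and the submitters' processing notes name GCRMA with no version. As deposited by the authors, the values are GCRMA summaries taken as log2 from their range of 2.49 to at least 14.51; neither labels nor table states the base. Of 5716 probe sets 5498 had 1 gene, and symbols were updated by gene identifier to the R64 RefSeq table. A probe set was kept if it reached a log2 value of 4 on 3 or more arrays, and the highest-mean one stood for its gene, giving 5350 genes. PI3K was compared with KD, grouped by sample title, by limma 3.58.1 in R 4.3.3 (lmFit, eBayes, two-sided, Benjamini-Hochberg over all 5350 genes, threshold 0.05), which was tested on simulated data. Residual degrees of freedom were 4, and the median residual SD was 0.20; the number of arrays limits the precision. The p-values set each group difference against the spread between these cultures. That spread was moderated across genes, with 2.97 prior degrees of freedom.

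The members, stages, lists and settings were chosen with earlier results of these data known. Each member was given 1 stage from general knowledge. Values of every array are given for the 4 members of each stage with the smallest p, the highest log2 fold change of each stage, the whole export stage, SSF1, RLP7 and RLP24. URB1, IPI1 and the paralog SSF2 are described beside them. Replicate numbers were not taken as pairing, since residuals of same-numbered samples correlated at -0.486, 0.475 and 0.390. Plots used matplotlib 3.10.9 and Python 3.11.15. Promoter and protein sequences were not used here.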

Additional observations from a re-analysis of the deposited data

How the results depend on the processing

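Over 16 alternatives (quantile normalisation or median-centring of arrays, no filter or one at a value of 6, a trended and robust eBayes, array weights, mean of probe sets, a replicate block, the length trend removed, array side as a covariate, and each array left out), 43 of the 51 members below 0 stayed below 0. The filter changes, the mean of probe sets, the trended and robust eBayes and the replicate block could not move a member's log2 fold change. Their agreement in sign was therefore fixed in advance, and only the other alternatives bear on it. The median of the members ran from -0.33 to -0.24 when 1 array was left out, the count of members called stayed 0, and that of members lower at an unadjusted p under 0.05 ran from 10 to 26 (the 26 without KD 3, where 13.0% of all genes were lower at that p). The genes called among all tested ran from 0 to 6 there, and the median of the export and cytoplasmic stage from -0.36 to -0.05. With array weights, whose estimation stopped before it converged and which gave KD 3 a weight of 0.154 and KD 2 one of 5.75, 2808 of 5350 genes and 41 members were called, 40 members were lower at an unadjusted p under 0.05, as were 31.3% of all genes, and the median of the members was -0.44. Of the members called, NOG2 (0.24) and TIF6 (0.36) were higher. The median of the earliest nucleolar stage was then -0.53, of the late nucleolar stage -0.33 and of the export stage 0.0036, with REI1 at 0.04 and NMD3 at 0.0036. With the array side as a covariate 185 genes and 5 members were called, URB2, DBP3, YTM1, MTR4 and IPI3, with log2 fold changes from -0.72 to -0.53; the side was found from the values tested, which makes these p-values too small. The export median was then -0.29, RSA3 0.01, RLP24 0.0025 and NOG2 -0.06. With the length trend removed 34 genes and 0 members were called, the nucleoplasmic and export medians were -0.24 and -0.28, MAK16 was -0.09 and NMD3 0.01. Quantile normalisation put NOG2 at -0.0029. The replicate block called 40 genes and 0 members, with 21 members and 5.29% of all genes lower at an unadjusted p under 0.05, and 2 of 6 samples correlated best with their own number. With 1 array left out, RSA3 ran from -0.05 to 0.02, NMD3 from -0.12 to 0.05, RLP7 from -0.05 to 0.01 and NOG2 from -0.02 to 0.18. The cause of these moves was not tested. Signal over background could not be judged beyond the summaries.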
